A study of Rattus norvegicus with 10 samples.

Results

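The transcriptome of the CA1 region was compared between rat hippocampal slices treated with SKF+Aβ+CSP‐TTK21 and slices treated with SKF+Aβ. The samples were chosen by their labels, and the comparison uses 4 of the 10 libraries of the series, 2 in each group. Both groups received SKF, an agonist of the dopamine D1/D5 receptors, together with oligomers of the amyloid peptide Aβ(1–42) at 200 nM. The treated group also received CSP‐TTK21 at 0.36 μg/ml, where CSP is a glucose-derived carbon nanosphere and TTK21 is the small molecule it carries, an activator of the histone acetyltransferases CBP and p300. No library of this comparison received the empty particle, so the particle and its cargo cannot be told apart here. The comparison asks which transcripts differ when CSP‐TTK21 is given together with the agonist and the peptide. The slices came from male Wistar rats of 5 to 7 weeks, had 30 min of basal stimulation before treatment and were collected 1 h after it. Each library pooled 2 slices from 2 biological samples, and the CA1 region was dissected from frozen slices. The labels number the replicates and name no animals, so p values measure the spread between these libraries. The other 3 groups, with 2 libraries each, were SKF, SKF+Aβ+CSP and CSP‐TTK21 alone, which had neither SKF nor Aβ. They enter the estimate of the spread, and their 6 libraries are given as a range of levels.

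CBP, encoded by Crebbp, and p300, encoded by Ep300, add acetyl groups to histones and serve as coactivators of many transcription factors, among them CREB. The D1/D5 receptors couple to Gs and adenylyl cyclase, and the resulting cAMP activates protein kinase A and through it CREB, whose targets include the immediate early genes. In CA1, new transcription through this route is known to be needed for long-lasting forms of synaptic plasticity, and Aβ oligomers are known to impair them.

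Depth was 6984426 and 6753742 counts for SKF+Aβ replicates 1 and 2, and 8151626 and 7332191 for the treated replicates. Levels below are normalized CPM, which scale each count to a common library size after correction by edgeR's TMM factor, and a floor of 3 counts lay between 0.354 and 0.447 CPM in the 10 libraries. The treated libraries had the lowest TMM factors of the 10, 0.961 and 0.958, and also the lowest shares of counts in genes too weakly expressed to be tested, 0.178% and 0.177%. The share was 0.277% in SKF+Aβ replicate 1, the highest of the 10, and 0.199% in SKF+Aβ replicate 2. Markers of pyramidal neurons were abundant in all 4 libraries. Camk2a, a subunit of the main postsynaptic kinase, was at 1594 and 1606 in SKF+Aβ and at 1767 and 1920 in the treated group, and the CA1 marker Mpped1 was at 149 and 176 against 190 and 186. Replicates were not technical copies, since chi-square divided by its degrees of freedom was 8.70 between the SKF+Aβ libraries and 9.53 between the treated ones.

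No gene differed between the groups after adjustment for the number of genes. Of 15032 genes tested with edgeR's quasi-likelihood test, 0 (0%) had a Benjamini-Hochberg adjusted p under 0.05, and the lowest adjusted p was 0.746. The numbers from DESeq2 and limma were 0 and 0. Without adjustment 990 genes had p under 0.05, of which 379 (2.52%) were higher and 611 (4.06%) lower in the treated group. Only 9 of the higher genes but 91 of the lower ones lay beyond a log2 fold change of 1.5. The groups did not overlap, with both treated libraries above or below both SKF+Aβ libraries, in 2733 genes higher (18.2%) and 2663 genes lower (17.7%), which became 1662 and 3757 genes with library totals. These shares over all genes are the background against which every count below is read. With 2 libraries against 2, an exact permutation test of a single gene cannot give a p below 0.333. Single genes are given below with their log2 fold change ± SE. In edgeR's quasi-likelihood test the adjusted p was at least 0.746 for each of them, and the unadjusted p under 0.05 serves only to order and count genes.

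The higher and the lower genes differed in their level. The median of the mean level over the 10 libraries was 41.0 CPM for the 379 higher genes, 11.6 for the 611 lower genes and 20.4 for all genes tested. With the genes divided into 5 equal classes by level, 0.798% of the weakest class were higher and 6.02% lower, while in the most abundant class 4.16% were higher and 2.53% lower. The median log2 fold change went from -0.20 in the weakest class to 0.05 in the strongest, beside 0.01 over all genes. The median size of the difference was 0.47 for the higher genes and -0.78 for the lower ones, against a median standard error of 0.21.

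**Figure D1:**
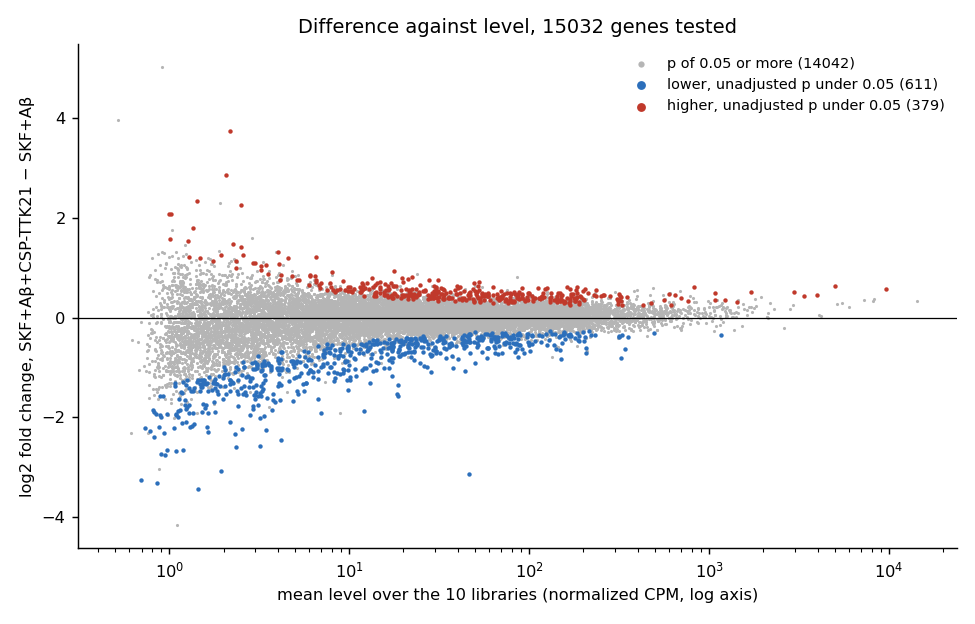
Log2 fold change of SKF+Aβ+CSP‐TTK21 against SKF+Aβ (vertical axis) against the mean normalized CPM over the 10 libraries (horizontal log axis), 1 point per gene tested. The 611 lower genes (blue) reach far below -1.5 at low levels, while most of the 379 higher genes (red) are moderate differences of genes at higher levels.

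**Figure D2:**
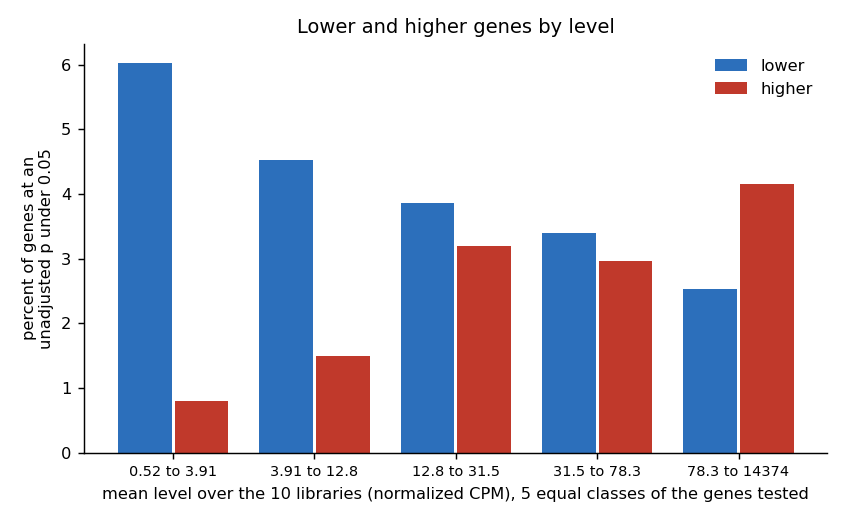
Percent of genes at an unadjusted p under 0.05 in 5 equal classes of the tested genes by level (horizontal axis, normalized CPM), lower in the treated group in blue and higher in red. From the weakest to the strongest class the lower share goes from 6.02% to 2.53% and the higher share from 0.798% to 4.16%.

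One library carried much of the lower set. SKF+Aβ replicate 1 was above SKF+Aβ replicate 2 in 552 of the 611 lower genes, compared with 7574 of all 15032. In a fit without SKF+Aβ replicate 1, where the remaining library of that group is assumed to vary like the other groups, 148 genes were lower and 247 higher, and 81 of the 611 and 118 of the 379 were still at p under 0.05. Without SKF+Aβ replicate 2 the counts were 1140 lower and 735 higher. Every library compared, when left out, took genes from both sets, and SKF+Aβ replicate 1 took the most. Position against the other 6 libraries was counted only within these sets. They were selected for a difference between the groups compared, and no share over all genes tested was computed. The position counts therefore describe the sets and do not show which group moved. Both treated libraries lay below all of the other 6 in 243 of the 611 lower genes, and both SKF+Aβ libraries above all of them in 41. Among the 379 higher genes, both SKF+Aβ libraries lay below the other 6 in 122, and both treated libraries above them in 39. The split between directions also moved with the scaling. With library totals in place of TMM factors 180 genes were higher and 950 lower, which makes 15.9% of these genes higher instead of 38.3%.

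The 8 higher genes with the smallest p ranged in level from Lppr3, at 9.50 and 9.99 CPM in SKF+Aβ and 16.4 and 15.0 in the treated group, to Csrp1, and the choice by p favours genes whose libraries lie close together. Csrp1, a LIM domain protein of the actin cytoskeleton, was at 127 and 144 CPM in SKF+Aβ and at 213 and 203 in the treated group, 1.53 times the mean, with a log2 fold change of 0.62 ± 0.15 (SE). Both SKF+Aβ libraries were below the range of 165 to 251 of the other 6 libraries, and the treated libraries were inside it. Padi2, a peptidylarginine deiminase found in oligodendrocytes, was at 85.9 and 85.4 against 134 and 126 (log2 fold change 0.60 ± 0.15). Tgfb1, which encodes the cytokine TGF-β1, was at 9.64 and 11.2 against 16.0 and 23.8 (0.93 ± 0.24). For both genes the groups were clearly separate, and the SKF+Aβ libraries were the lowest of all 10. Oaz1, the antizyme that limits polyamine synthesis, rested on libraries that agreed closely, 77.5 and 79.1 against 109 and 112 (0.49 ± 0.13). Ftl1, the light chain of ferritin, was at 81.0 and 95.2 against 120 and 128 (0.49 ± 0.13). Ppp1r1b encodes DARPP-32, a phosphatase inhibitor switched by D1 signalling. It was at 36.9 and 37.4 against 49.7 and 59.0 (0.55 ± 0.15), and the other 6 libraries ranged from 33.0 to 77.7. The last of the 8 were Ntsr2, a neurotensin receptor of astrocytes (0.71 ± 0.19), and Lppr3, a membrane protein of the plasticity-related gene family (0.69 ± 0.19). With any one of the 4 libraries left out, 7 of these 8 log2 fold changes stayed at p under 0.05 and that of Ntsr2 did so in all but one case, without treated replicate 2, where it was 0.46. Tgfb1 and Ntsr2 varied with the treated libraries, at 0.62 and 0.46 without treated replicate 2 and at 1.19 and 0.92 without treated replicate 1.

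The largest higher folds belonged to weakly expressed genes. Of the 10, Otx1, a homeobox transcription factor, was at 0.838 and 0.447 CPM against 1.79 and 2.85 (log2 fold change 1.81 ± 0.56). One of the entries named Pak2, a kinase activated by Rac and Cdc42, was at 1.82 and 1.64 against 5.11 and 3.56 (1.32 ± 0.38). Its SKF+Aβ libraries were below the range of 3.61 to 6.41 of the other 6. These values are those of this entry and not of the whole gene. Ccdc109b, a subunit of the mitochondrial calcium uniporter, was at 1.40 and 1.64 against 3.84 and 3.42 (1.25 ± 0.39). The top value was set by one library, since M6pr, a mannose 6-phosphate receptor, had 4 and 68 counts in the treated libraries against 2 and 3 (3.74 ± 1.41). Rps27a-ps1, a pseudogene entry that may share reads with its parent, was likewise high in treated replicate 1 alone, at 17.8 against 5.99 in replicate 2. The remaining members were Rtp3, Phf19, Pald1, Phox2a and Igfn1, with log2 fold changes of 2.86, 1.25, 1.20, 1.19 and 1.14. With each library left out Rtp3 ranged from 1.74 to 7.02 and Phf19 from 0.92 to 1.68. Pald1 ranged from 0.69 to 1.93, Phox2a from 0.75 to 1.82 and Igfn1 from 0.60 to 1.55.

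The 8 lower genes with the smallest p were at low to moderate levels. Ggt6, of the gamma-glutamyltransferase family, was at 13.4 and 3.73 CPM in SKF+Aβ and at 1.28 and 1.85 in the treated group (log2 fold change -2.46 ± 0.55). The SKF+Aβ libraries differed widely from each other, and the fold change was -1.25 without SKF+Aβ replicate 1. Znf750, a transcription factor of the epidermis, was at 5.73 and 3.43 against 0.895 and 1.43 (-1.98 ± 0.45), with 41, 23, 7 and 10 counts. Muc6, a gastric mucin, was at 31.6 and 20.9 against 6.26 and 11.4 (-1.58 ± 0.38). Both treated libraries were below the range of the other 6 libraries for Znf750, 2.72 to 4.69, and for Muc6, 11.5 to 29.5. Acr, the sperm protease acrosin, was at 8.10 and 4.02 against 1.53 and 2.28 (-1.67 ± 0.41). Ybx2, an RNA-binding protein of germ cells, was at 4.75 and 3.58 against 0.895 and 1.43 (-1.84 ± 0.45). Duox1, an NADPH oxidase, was at 8.38 and 5.07 against 2.43 and 2.42 (-1.47 ± 0.37), and the other 6 libraries ranged from 4.27 to 6.64. Elmo3 and the photoreceptor gene Rp1l1 had log2 fold changes of -1.04 and -1.54. All 8 kept p under 0.05 and their direction with each of the 4 libraries left out in turn.

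Among the 10 largest lower folds were Slc6a12, a transporter of betaine and GABA, Agbl1, Il4, Aqp12a, Brms1l, Guca2a and Icam2, with log2 fold changes of -2.60, -2.19, -2.14, -2.10, -2.10, -1.96 and -1.92, besides Ggt6 and Znf750. The cytokine gene Il4 had 19 and 15 counts without and 3 and 5 with CSP‐TTK21. Brms1l encodes a subunit of the Sin3 histone deacetylase complex and was at 2.37 and 1.79 CPM against 0.256 and 0.713. Slc6a12 rested on one library, with 47 and 6 counts without and 4 and 5 with CSP‐TTK21, and its log2 fold change was -0.54 without SKF+Aβ replicate 1. LOC103692716, an uncharacterized gene chosen after its values were seen, stood out by level. It was at 56.2 and 78.4 in SKF+Aβ and at 9.20 and 5.99 in the treated libraries (log2 fold change -3.13 ± 0.87). Its levels in the other groups did not follow the treatment, with the other 6 libraries between 8.69 and 84.5.

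**Figure D3:**
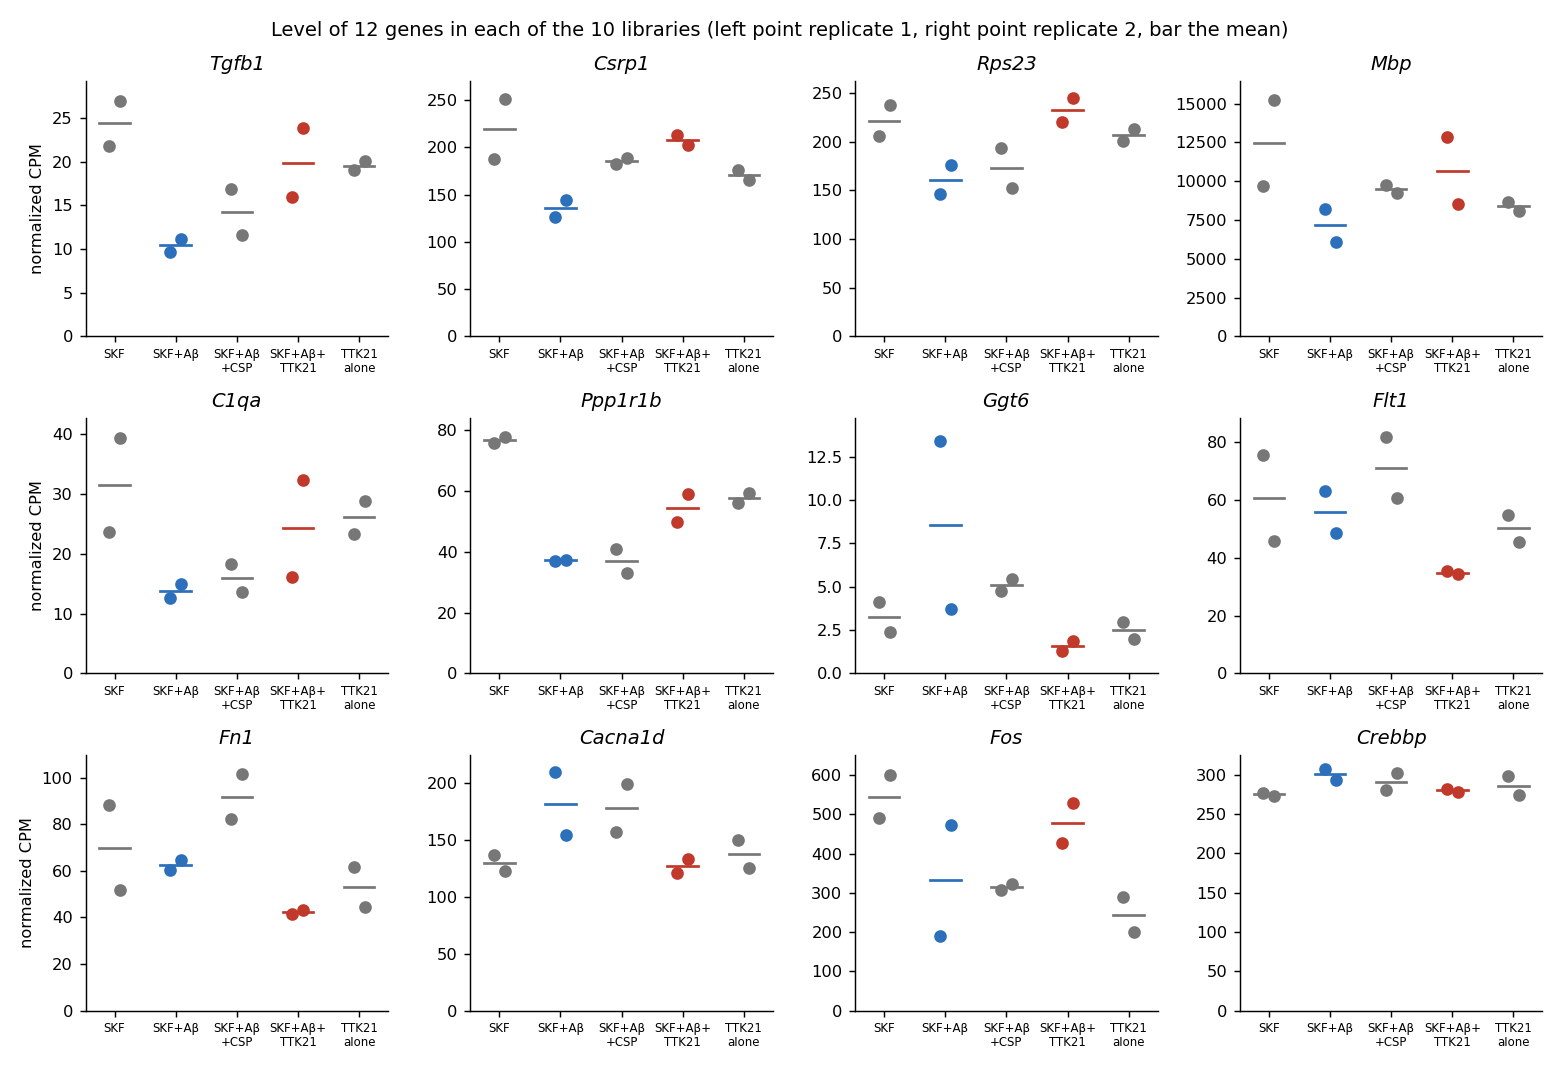
Normalized CPM of 12 genes (vertical axes from 0) in each of the 10 libraries by group, with SKF+Aβ in blue, SKF+Aβ+CSP‐TTK21 in red and the other groups in grey; points are libraries, bars are group means and TTK21 on the axes stands for CSP‐TTK21. In Tgfb1 and Csrp1 the SKF+Aβ points are the lowest, in Flt1 and Fn1 the treated points are the lowest, and in Fos the 2 SKF+Aβ libraries lie far apart.

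The transcripts of both targets of TTK21 differed by less than their standard error. Crebbp was at 307 and 293 CPM in SKF+Aβ and at 282 and 278 in the treated group (log2 fold change -0.10 ± 0.12). Ep300 was at 74.9 and 68.1 against 74.1 and 60.7 (-0.08 ± 0.14). The groups of Crebbp did not overlap, by a margin smaller than the spread within SKF+Aβ, and those of Ep300 did. Of 16 histone acetyltransferases tested, 0 were at p under 0.05 in either direction, 0 did not overlap higher and 5 did not overlap lower, and the median log2 fold change was -0.06. The smallest p belonged to Ncoa3, a nuclear receptor coactivator (-0.22), and Kat6b, a MYST family enzyme (-0.20). Among 15 deacetylases and sirtuins 2 were higher and 0 lower, 4 did not overlap higher and 2 lower, and the median was -0.07. The count of 2 was 0 without SKF+Aβ replicate 2, 0 without treated replicate 1 and 0 with library totals. Sirt2, a tubulin and histone deacetylase abundant in myelinating cells, was at 246 and 209 against 349 and 263 (0.43 ± 0.17). Hdac11 was at 84.6 and 85.8 against 116 and 100 (0.34 ± 0.15). Of 15 bromodomain readers and CBP/p300 partners 0 were at p under 0.05, 1 did not overlap higher and 3 lower, and the median was -0.09.

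Immediate early genes, the first transcripts induced by activity, were not separated between the groups. Of 17 tested, 0 were at p under 0.05, 2 did not overlap higher and 2 lower, with a median log2 fold change of 0.09. At the same threshold 6 were higher without the filter on low counts, 2 with limma and 2 with the replicate block. Fos was at 190 and 473 CPM in SKF+Aβ and at 427 and 528 in the treated group (0.53 ± 0.30). The SKF+Aβ libraries of Fos lay further apart than the group means, and the log2 fold change was 0.01 without SKF+Aβ replicate 1 and 1.31 without SKF+Aβ replicate 2. The same held for the list, whose median was -0.23 without the first and 0.53 without the second of these libraries, with 8 of 17 members higher at p under 0.05 in the latter fit. Atf3, a stress-induced factor, was at 46.2 and 85.5 against 104 and 83.0, so that its groups overlapped. Among effector genes of the activity response 0 of 21 were at p under 0.05 in either direction, 1 did not overlap higher and 6 lower, and the median was -0.13. Fitted on only the 4 libraries compared, 5 members were lower at p under 0.05, and 7 without the filter on low counts. Without SKF+Aβ replicate 2 that median was -0.02, with 2 members higher and 1 lower at p under 0.05. Plk2, a kinase of synaptic homeostasis, was at 560 and 568 against 443 and 436, and Ptgs2, the inducible cyclooxygenase, at 242 and 232 against 165 and 154. In both genes the libraries of a group agreed closely, while the other 6 libraries ranged from 252 to 576 for Plk2 and from 74.5 to 293 for Ptgs2.

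Among genes of synaptic signalling, calcium and sodium channels had a median below 0 whichever library was left out, while the other lists gave 0 or 1 members higher at p under 0.05, where 2.52% of all genes were. In the D1/D5 receptor and cAMP pathway 1 of 26 tested entries, Ppp1r1b, was higher at p under 0.05 and 0 lower, with 3 not overlapping in each direction and a median of 0.04. That median lay between -0.09 without SKF+Aβ replicate 1 and 0.16 without SKF+Aβ replicate 2. Among 37 glutamate receptors and scaffolds 1 was higher, the metabotropic receptor Grm3, at 130 and 138 against 190 and 176 (0.45 ± 0.18), and 0 were lower. Of 24 plasticity kinases and phosphatases 1 was higher, Mapk3, which encodes ERK1, at 83.8 and 106 against 124 and 131 (0.42 ± 0.15). These 3 counts turned on single libraries. The D1/D5 list had 3 members higher without SKF+Aβ replicate 2 and the plasticity list 3, without SKF+Aβ replicate 1 the glutamate and the plasticity lists had 0, and without treated replicate 1 the glutamate list had 5 higher and 2 lower. Of 23 calcium and sodium channel genes 3 were lower and 0 higher at p under 0.05, 9 did not overlap lower and 2 higher, and the median was -0.12. Cacna1d, the L-type pore subunit Cav1.3, was at 210 and 154 against 121 and 134 (-0.52 ± 0.17). Cacna1c, the L-type subunit Cav1.2, was at 203 and 228 against 159 and 176 (-0.37 ± 0.14), and the auxiliary subunit Cacnb2 at 104 and 91.4 against 80.7 and 66.2 (-0.41 ± 0.14). The median of the list stayed between -0.13 and -0.10 with each library left out, and 1 member was lower without SKF+Aβ replicate 1 and 5 with library totals. Of 24 potassium channel genes 1 was higher, Kcnj10, the inward rectifier of astrocytes, at 43.2 and 59.5 against 66.5 and 76.0 (0.47 ± 0.20). That count was 0 without SKF+Aβ replicate 1 or treated replicate 2, and 4 without SKF+Aβ replicate 2. Of 25 monoamine and cholinergic receptors and of 31 genes of synaptic vesicles 0 were at p under 0.05 in either direction, with medians of 0.08 and 0.09. With SKF+Aβ replicate 2 left out, 7 of the receptors and 6 of the vesicle genes were higher, with medians of 0.53 and 0.22, and without SKF+Aβ replicate 1 the medians were -0.08 and -0.04.

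Ribosomal protein genes lay higher in the treated group as a list. They encode the proteins of the cytosolic ribosome, and many of their mRNAs begin with a C followed by a run of pyrimidines, a feature known to place their translation under mTOR control. Of 40 members tested 16 were higher at p under 0.05 and 0 lower, where 2.52% and 4.06% of all genes were. The groups did not overlap in 30 members higher (18.2% of all genes) and in 0 lower (17.7%), and the median log2 fold change was 0.33. Rps23 was at 146 and 176 CPM in SKF+Aβ and at 220 and 245 in the treated group (0.53 ± 0.15). Rpsa was at 150 and 164 against 207 and 214 (0.43 ± 0.13), and Rps20 at 68.4 and 64.2 against 89.1 and 87.8 (0.41 ± 0.13). In these genes the treated libraries were above SKF+Aβ and within or just above the range of the other 6. Only Rpl37 and one of the entries named Rps2 were below 0, at -1.79 ± 1.04 and -0.02. The summed level of the list was 4101 and 4788 in SKF+Aβ, 5312 and 5706 in the treated group and 4107 to 5907 in the other 6 libraries. The count of 16 rested on 2 libraries, since it was 3 without SKF+Aβ replicate 1 and 4 without treated replicate 2, while the median stayed between 0.22 and 0.40. Ribosomal protein genes have processed copies in the genome, and how reads were divided between copies was not stated.

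The starts of the 5 ribosomal protein genes with the smallest p among those matched to a promoter are shown, 30 bases each on the gene's strand from 10 bases before the annotated start, from RefSeq on GRCr8, to show which of them hold the tract named above. Capitals mark a run of at least 5 bases of C or T that begins with C within 5 bases of the start.
Rps23 (chr2:23814507-23814536, plus strand): ccttcctgcCTCTCTTCTCTCTTTCTCTCg
Rps15 (chr7:10068096-10068125, minus strand): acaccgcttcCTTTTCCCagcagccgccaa
Rplp0 (chr12:46718371-46718400, minus strand): caccgcacttCTCTCgccaggcgtcctcat
Rpsa (chr8:128728869-128728898, plus strand): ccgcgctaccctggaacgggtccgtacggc
Rpl24 (chr11:58128386-58128415, minus strand): tagggaggagattctctaccctataaggtg
The run was found in Rps23, Rps15 and Rplp0 and not in Rpsa and Rpl24, and 17.4% of the 10144 promoters matched to tested genes hold it. A promoter was matched for 23 of the 40 ribosomal protein genes (57.5%), too few for a share over the list.

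Transcripts of energy metabolism and of the replication-dependent histones had medians above 0 with few members at p under 0.05. All 13 mitochondrially encoded genes were tested, 0 were at p under 0.05 in either direction, 9 did not overlap higher and 0 lower, and the median was 0.30. Their summed level was 60453 and 59469 CPM in SKF+Aβ and 66627 and 80617 in the treated group, while the other 6 libraries ranged from 35111 to 73373. Of 35 genes of oxidative phosphorylation 1 was higher and 0 lower, 16 did not overlap higher and 0 lower, with a median of 0.19. These include 11 mitochondrially encoded genes, which are also in the list of 13. Of the 24 nuclear-encoded genes 1 was higher and 0 lower, 9 did not overlap higher and 0 lower, and the median was 0.18. Cox4i1, a nuclear-encoded subunit of cytochrome c oxidase, was at 244 and 316 against 327 and 385 (0.35 ± 0.15). Among 26 proteasome subunits 0 were at p under 0.05 and 7 did not overlap higher, with a median of 0.08. Of 24 replication-dependent histone genes, whose mRNAs mostly lack a poly(A) tail, 2 were higher and 0 lower, 12 did not overlap higher and 0 lower, and the median was 0.31. Leaving out 1 library lowered these medians to 0.13 for the mitochondrially encoded genes and 0.15 for the histones, both without treated replicate 2, and to 0.07 for oxidative phosphorylation without SKF+Aβ replicate 1. In oxidative phosphorylation 9 genes were higher without SKF+Aβ replicate 2, with a median of 0.29. The 2 higher histone genes were 0 without SKF+Aβ replicate 1 and 0 without treated replicate 2. The summed level of histone genes was 189 and 228 in SKF+Aβ and 248 and 288 in the treated libraries. Of 22 genes of splicing and nuclear RNA processing 0 were at p under 0.05, 0 did not overlap higher and 6 lower, with a median of -0.07.

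Markers of glial cells lay higher in the treated group. In these bulk samples more cells of a type and more RNA per cell cannot be told apart. Of 16 oligodendrocyte markers 7 were higher at p under 0.05 and 0 lower, all 16 log2 fold changes were above 0, and the median was 0.53. Mbp, the myelin basic protein, was at 8217 and 6088 CPM in SKF+Aβ and at 12819 and 8525 in the treated group (0.58 ± 0.23). Treated replicate 1 was well above the other 3 libraries compared, SKF+Aβ replicate 2 was the lowest of the 10, and the other 6 libraries ranged from 8096 to 15218. The groups did not overlap in only 3 of the 16 markers, and the summed level was 17182 and 12046 against 27628 and 16165. The median was 0.01 without treated replicate 1 and 0.85 without treated replicate 2. Without SKF+Aβ replicate 1 it was 0.71 and without SKF+Aβ replicate 2 it was 0.32. The number of members at p under 0.05 moved with the library left out, in both groups. Olig1, a transcription factor of the lineage, was at 70.7 and 60.1 against 114 and 82.8 (0.59 ± 0.20). The median of precursor markers moved less. Of 7 tested 2 were higher, 5 did not overlap higher and 0 lower, and the median was 0.36, between 0.34 and 0.44 with each library left out. Gpr17, a receptor of differentiating precursors, was at 14.1 and 11.9 against 24.0 and 16.5 (0.64 ± 0.27), with 0.34 without treated replicate 1. The count of 2 was 1 without SKF+Aβ replicate 2 or treated replicate 1, 3 without treated replicate 2 and 0 with library totals.

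Astrocyte markers were higher in 4 of 16 and lower in 0 at p under 0.05, 9 did not overlap higher and 0 lower, and the median was 0.33. Mlc1, a membrane protein of astrocyte endfeet, was at 200 and 238 CPM against 267 and 331 (0.45 ± 0.20), and Acsbg1, an acyl-CoA synthetase, at 123 and 152 against 162 and 208 (0.43 ± 0.18). Gfap, the intermediate filament raised in reactive astrocytes, had a log2 fold change of 0.07. The count of astrocyte markers was 0 without treated replicate 2. Of 15 microglia markers 2 were higher and 0 lower, 3 did not overlap higher and 0 lower, and the median was 0.45. C1qa and C1qb encode chains of complement C1q. C1qa was at 12.6 and 14.9 against 16.1 and 32.4 (0.81 ± 0.32) and C1qb at 8.94 and 13.7 against 15.7 and 20.4 (0.67 ± 0.29). Treated replicate 2 was the high library here, unlike for myelin genes, and without it the median was 0.07 with 0 members at p under 0.05. Leaving out SKF+Aβ replicate 1 also gave 0 members, with a median of 0.17. Neuronal lists had 0 members at p under 0.05 and a median of 0.12, both for 12 CA1 and pyramidal markers and for 30 interneuron and GABA receptor genes. The groups did not overlap in 5 of the 12 higher and 0 lower, and in 7 of the 30 higher and 0 lower. With each library left out the CA1 and pyramidal median lay between 0.07 and 0.20, and some of these fits gave members at p under 0.05. The interneuron median was -0.03 without SKF+Aβ replicate 1 and 0.32 without SKF+Aβ replicate 2, with 8 members higher in the latter fit. For 14 markers of CA3, CA2 and the dentate gyrus 7 log2 fold changes were above and 7 below 0.

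Vascular and meningeal genes lay lower. Of 11 endothelial markers 3 were lower and 0 higher at p under 0.05, 8 did not overlap lower and 0 higher, and the median was -0.58. Abcb1a, the P-glycoprotein of the blood-brain barrier, was at 93.3 and 92.9 CPM in SKF+Aβ and at 66.6 and 71.7 in the treated group (-0.43 ± 0.14). Flt1, a receptor of VEGF, was at 63.0 and 48.4 against 35.3 and 34.2 (-0.68 ± 0.23), and Tie1, an endothelial receptor kinase, at 9.78 and 7.30 against 4.35 and 4.85 (-0.90 ± 0.40). For all 3 genes both treated libraries were below each of the other 8. Mural markers did not share this, with 0 of 10 at p under 0.05 and a median of -0.04. The summed level of the endothelial markers was 276 and 234 in SKF+Aβ, 184 and 183 in the treated group and 213 to 362 in the other 6 libraries. Without SKF+Aβ replicate 1 the median of endothelial and mural markers together was -0.08, compared with -0.37. It was -0.45 without SKF+Aβ replicate 2, -0.38 without treated replicate 1 and -0.25 without treated replicate 2. Fewer of these markers were lower at p under 0.05 without SKF+Aβ replicate 1 or without either one of the treated libraries. Of 23 meningeal and matrix genes 3 were lower and 2 higher, 11 did not overlap lower and 2 higher, with a median of -0.41. Fn1, fibronectin, was at 60.3 and 64.5 against 41.4 and 43.3 (-0.56 ± 0.23), and Slc6a13, a GABA transporter of the meninges, at 1.40 and 1.34 against 0.511 and 0.428 (-1.51 ± 0.63). The members that were higher were Ptgds, a prostaglandin D synthase that oligodendrocytes also make (0.47 ± 0.18), and Fbln1 (0.66 ± 0.28). Their count was 0 without either one of the SKF+Aβ libraries and 1 without either one of the treated libraries, with Ptgds at 0.19 without treated replicate 1 and Fbln1 at 0.33 without treated replicate 2. Collagens gave 2 of 34 lower and 0 higher, 13 not overlapping lower, 3 higher and a median of -0.31. Without SKF+Aβ replicate 1 the lower counts were 0 for meningeal and matrix genes and 0 for collagens. For the meningeal and matrix genes 1 was lower without either one of the treated libraries, and for collagens 8 without SKF+Aβ replicate 2. The summed level of meningeal and matrix genes was 594 and 528 against 452 and 462, and 472 to 938 in the other 6 libraries. How much tissue of vessels and meninges each dissection held was not recorded in the labels, and its part in these values was not tested.

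**Figure D4:**
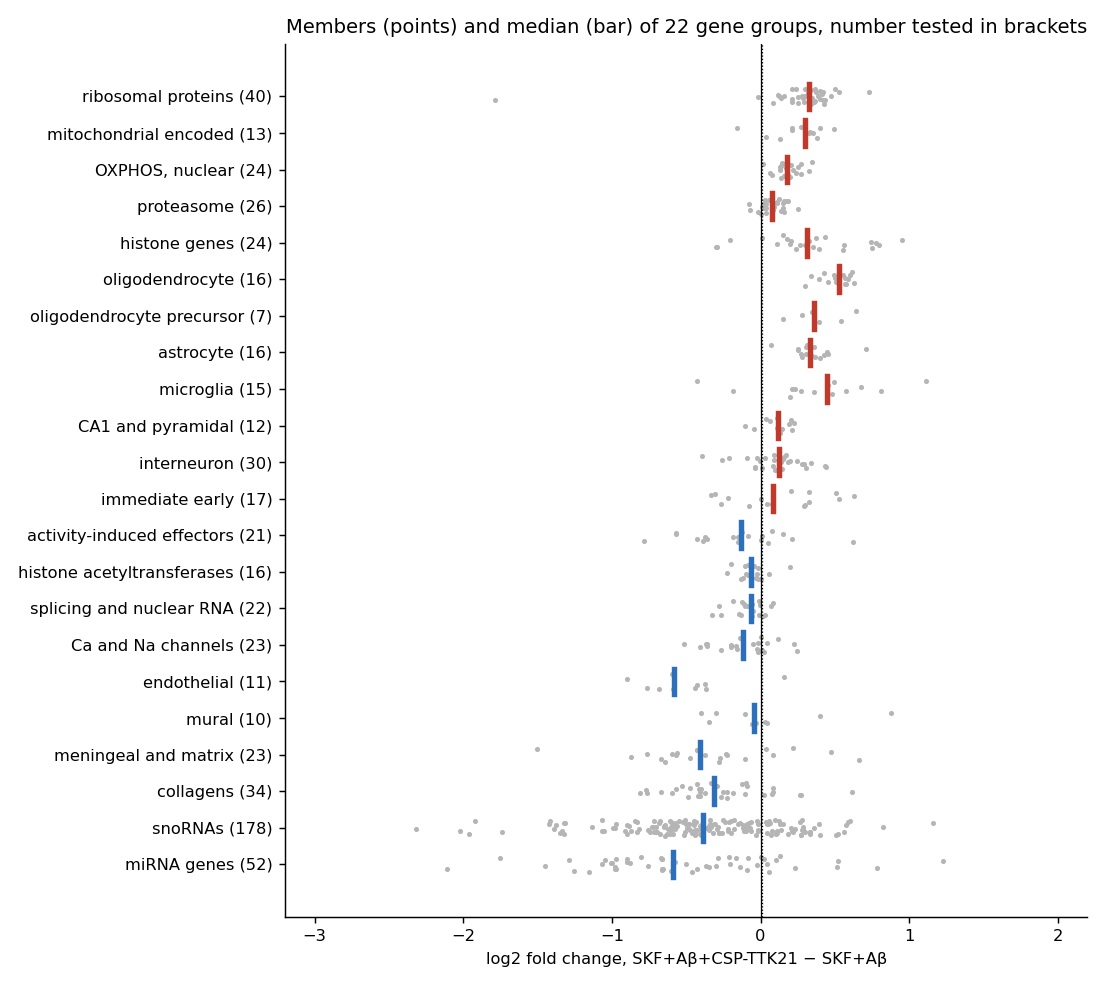
Log2 fold change of SKF+Aβ+CSP‐TTK21 against SKF+Aβ for the tested members of 22 gene groups (grey points, slightly spread vertically) with the group's median as a bar, red above and blue below 0; the dotted line is the median of all genes, 0.01. Ribosomal protein and glial groups lie to the right, with medians of 0.33 to 0.53, and endothelial, meningeal, snoRNA and miRNA groups to the left, with medians of -0.38 to -0.59.

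Entries of snoRNA and miRNA genes had medians below 0, while other small RNAs went both ways. The libraries were depleted of ribosomal RNA, and their reads count whatever overlaps a gene entry, so mature small RNAs were not measured as such. Of 178 snoRNA entries tested 14 (7.87%) were lower and 0 higher at p under 0.05, with a median log2 fold change of -0.38. The groups did not overlap in 60 entries lower (33.7%) and in 12 higher (6.74%). In the weakest class of all genes by level 6.02% were lower, 723 of 3007 did not overlap lower and the median was -0.20. Among snoRNA entries with at least 10 counts in every library the median was -0.26. Without SKF+Aβ replicate 1 fewer snoRNA entries were lower, with a median of -0.24. Y RNA, SRP, 7SK and spliceosomal RNA entries included 7 of 97 higher and 3 lower, 14 did not overlap higher and 23 lower, and the median was -0.24. The median of these entries lay between -0.23 and -0.07 with each library left out, and their split between directions moved too. It was -0.07 for those of them with at least 10 counts in every library. The summed level of all Y RNA, SRP, 7SK and spliceosomal RNA entries was 5753 and 6370 CPM in SKF+Aβ and 7075 and 8591 with CSP‐TTK21, above both in each treated library. Of 52 miRNA gene entries 6 were lower and 1 higher, 25 did not overlap lower and 3 higher, and the median was -0.59. The median of the miRNA entries lay between -0.53 and -0.49 with each library left out, and the count of lower entries between 0 without treated replicate 1 and 9 without SKF+Aβ replicate 2. Among entries with at least 10 counts in every library the median was -0.15.

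RefSeq mature sequences on GRCr8 were matched for 45 of the 52 miRNA entries, and 17 of these lie within chr6:134298094-134576520, the imprinted Dlk1-Dio3 region. Many miRNAs of this region are processed from long maternally expressed transcripts. Mir3579, Mir3592 and Mir3576 lie on the minus strand and the other entries of the region on the plus strand, so 1 origin cannot be assumed for all. The grouping by region was chosen after the values were seen. Of the 17 entries 16 had log2 fold changes below 0, with a median of -0.90, compared with 20 of the 28 on other chromosomes and a median of -0.33. Summed over the 17 entries, counts were 451 and 371 without CSP‐TTK21 and 232 and 294 with it. Rtl1, a protein-coding gene of the same region, was at 39.0 and 36.8 CPM against 18.8 and 30.8 (-0.62 ± 0.30). Entries of one region may count reads of the same long transcripts and are not independent of each other. The mature sequences of the 3 entries of the region at p under 0.05 and of Mir137, outside it, are given with the seed, bases 2 to 8, in capitals.
rno-miR-3579: gCGCAUGUucuauggucaacca
rno-miR-341: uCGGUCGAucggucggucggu
rno-miR-770-5p: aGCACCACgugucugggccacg
rno-miR-770-3p: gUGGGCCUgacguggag
rno-miR-137-3p: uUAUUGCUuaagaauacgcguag
rno-miR-137-5p: aCGGGUAUucuuggguggauaa
No seed is shared among these sequences. Counts of Mir3579 were 12 and 17 without and 3 and 6 with CSP‐TTK21 (-1.75 ± 0.58), and Mir341 27 and 23 against 7 and 15 (-1.26 ± 0.48). Mir770, the most abundant, had 251 and 191 against 125 and 171 (-0.66 ± 0.28). Mir137, a brain-enriched miRNA gene, had 12 and 9 against 2 and 3 (-2.11 ± 0.80). In all 4 entries both treated libraries were below both SKF+Aβ libraries, at counts that leave wide errors. Mir132 and Mir212, a pair driven by CREB, had 7 and 11 against 4 and 8 counts and 13 and 20 against 16 and 13.

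Of 27 genes of amyloid biology tested 3 were higher and 0 lower at p under 0.05, 8 did not overlap higher and 1 lower, with a median of 0.14. The 3 higher genes were 0 without SKF+Aβ replicate 1 and 1 without treated replicate 2, while the median stayed between 0.10 and 0.16. App, the amyloid precursor, was at 1282 and 1345 CPM in SKF+Aβ and at 1492 and 1329 in the treated group (0.10 ± 0.14). Clu and Apoe encode lipoproteins that bind Aβ and are made mainly by glia. Clu was at 571 and 595 against 726 and 809 (0.40 ± 0.14) and Apoe at 1117 and 1372 against 1432 and 2118 (0.51 ± 0.20). Psenen, a subunit of the gamma-secretase, was at 22.6 and 29.1 against 37.6 and 33.6 (0.46 ± 0.21). These groups did not overlap, and the 3 genes were within the range of the other 6 libraries in the treated group except Psenen, whose treated replicate 1 was above 36.8.

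In the TGF-β and BMP pathway 1 of 35 tested entries was higher, the ligand gene Tgfb1 given above, and 2 were lower, while 11 did not overlap higher and 5 lower, with a median of 0.13. The lower ones were Ltbp2, a latent TGF-β binding protein, at 6.70 and 3.58 against 3.45 and 2.14 (-0.87 ± 0.40), and the BMP inhibitor Chrd at 29.5 and 23.7 against 19.4 and 19.5 (-0.45 ± 0.21). Of 42 genes of the Wnt pathway 1 was higher and 2 were lower, 4 did not overlap higher and 7 lower, with a median of 0.01. Wnt10b, a secreted ligand, was at 2.51 and 1.64 against 0.639 and 0.855 (-1.47 ± 0.55), and both treated libraries were below the other 6. Tcf7, a nuclear effector of β-catenin, was at 10.5 and 5.66 against 2.30 and 4.85 (-1.19 ± 0.41), and the receptor Fzd9 at 5.17 and 6.86 against 8.44 and 10.1 (0.63 ± 0.26). Among 10 ligands tested the median was -0.34, with Wnt3 at 2.10 and 1.04 against 0.511 and 1.14. The 2 lower genes of the Wnt list and the 2 of the TGF-β list were 0 and 0 without SKF+Aβ replicate 1, and those of the Wnt list 5 without SKF+Aβ replicate 2. Wnt3a was too weak to be tested, with 8 and 2 counts without CSP‐TTK21 and 8 and 0 with it.

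In the lists of stress and inflammatory genes at most 1 member was at p under 0.05 in each direction, and these counts moved with the library left out. Of 28 acute cytokine and chemokine genes 0 were higher and 1 lower, Il1r1, the interleukin 1 receptor, at 10.5 and 10.9 against 6.78 and 7.13 (-0.62 ± 0.23). Il6 was at 33.7 and 25.3 against 46.3 and 15.8 (0.08 ± 0.39) and Cxcl1 at 83.7 and 42.0 against 86.0 and 24.7 (-0.18 ± 0.65), so the libraries within a group differed more than the groups. Without treated replicate 2, 4 of the cytokine genes were higher. Of 16 genes of the integrated stress and unfolded protein responses 1 was higher, Atf5, a transcription factor of the ATF/CREB family, at 27.5 and 30.8 in the treated group (0.42 ± 0.18), and 0 were higher without SKF+Aβ replicate 1 or treated replicate 2. Of 26 hypoxia and glycolysis genes Egln3, an oxygen-sensing prolyl hydroxylase, was higher at 15.9 and 11.5 against 24.0 and 16.1 (0.55 ± 0.24), and the count of that list was 4 without SKF+Aβ replicate 2 and 0 without treated replicate 1. Among 24 interferon and antigen presentation genes 1 was higher, Mx2, an interferon-induced GTPase, at 14.1 and 15.2 against 21.3 and 22.1 (0.57 ± 0.21), and 1 lower, RT1-T24-3, an MHC class I gene whose family members may share reads. In this list 4 were lower without SKF+Aβ replicate 2, and without SKF+Aβ replicate 1 or treated replicate 2, 0 were at p under 0.05 in either direction. In 11 heat shock genes and 13 Nrf2 target genes 0 members were at p under 0.05 in either direction, and without treated replicate 2 there were 1 higher and 1 lower in the first and 2 higher in the second list. S100b, an astrocyte calcium-binding protein, was at 629 and 781 against 837 and 1026 (0.40 ± 0.20). Actb, often used as a reference, was at 1708 and 1654 against 2131 and 1831 (0.24 ± 0.13).

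**Figure D5:**
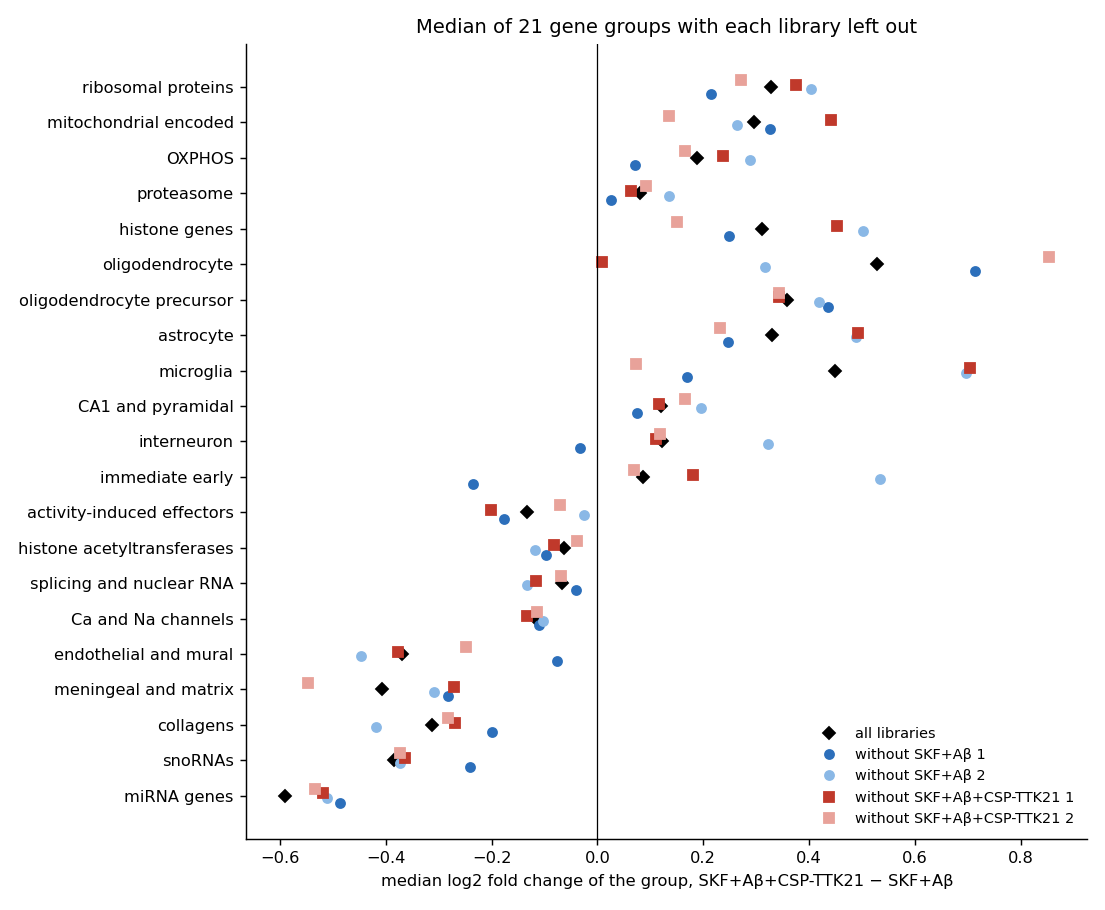
Median log2 fold change of 21 gene groups with all libraries (black diamonds) and with each of the 4 compared libraries left out (circles without an SKF+Aβ library, squares without a treated library). Oligodendrocyte, microglia and immediate early groups move most, the oligodendrocyte median from 0.01 to 0.85, while calcium and sodium channels stay between -0.13 and -0.10.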

How the data were processed

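RNA-seq of rat CA1 slices was analysed from a table of raw read counts per gene, which the authors made with a program not given in the sources used here and deposited with 1 column for each of 10 libraries. The study's methods describe a stranded, rRNA-depleted library kit, Trim Galore, removal of duplicates with Samtools, TopHat2 and Cufflinks, and name both rat and mouse builds. The submitters' processing notes name STAR, RSEM, HISAT2, Salmon and GRCh38. Which of these steps produced the counts, and whether strand was used, is not known. The gene IDs are rat Ensembl IDs.

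Of 32545 rows, 15032 passed edgeR's filterByExpr over the 10 libraries and 17513 were not tested. All 10 libraries entered 1 fit with a mean per group (5 residual degrees of freedom), TMM factors and the quasi-likelihood test of edgeR. The p values were adjusted over all genes tested by the method of Benjamini and Hochberg, and the threshold was 0.05. Levels are normalized CPM and log2 fold changes are given ± SE. R 4.3.3, edgeR 4.0.16, limma 3.58.1, DESeq2 1.42.0, Python 3.11.15, pandas 2.3.3 and matplotlib 3.10.9 were used, and the fit was tested on simulated data. Sequences are from RefSeq on GRCr8.

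Named were, among genes at an unadjusted p under 0.05 whose groups did not overlap, the 10 highest and 10 lowest log2 fold changes with at least 2 CPM in the higher group, the 8 genes per direction with the smallest p, up to 4 members of each list, and the genes with primers in the study. Genes without a symbol and copies of small structural RNAs were counted as families. Some genes that this rule names are not reported here. The comparison, its gene lists and families were chosen with earlier results of these data known. Alternatives were DESeq2, limma, RLE and upper quartile factors, library totals, no filter, at least 10 counts in every library, only the 4 libraries compared, a replicate block, and leaving out each of the 4 libraries. Counting intervals and floors cover counting error only.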

Additional observations from a re-analysis of the deposited data

How the results depend on the processing

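The count of 0 genes at an adjusted p under 0.05 held with edgeR under RLE factors, upper quartile factors, library totals, at least 10 counts in every library and the replicate block, and with DESeq2 and limma. Without a filter, where 25251 genes were tested, it was 128, with only the 4 libraries 1 (LOC103692716), and with each library left out 0 to 7, the 7 without SKF+Aβ replicate 2. At an unadjusted p under 0.05, 379 genes were higher and 611 lower. These were 180 and 950 with library totals, 734 and 969 without a filter, and 247 to 735 and 148 to 1140 with each library left out. Beyond a log2 fold change of 1.5, 9 higher genes became 40 without a filter, 0 with at least 10 counts in every library, and 18 to 44 with each library left out. The 91 lower ones became 40 with limma, 254 without a filter, 13 with at least 10 counts, and 36 to 251 with each library left out. The 2733 higher genes without overlap were 1662 with library totals, and the 2663 lower ones 3757. In an arm of 1 library, that library is assumed to vary like the other groups. Depth limits the weakest class, where 3 counts are up to 0.447 CPM. The cause of these changes was not tested.

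The labels do not say that a replicate number marks a shared animal or day, and there are 2 pairs only. Deviations of same-numbered libraries from the group means correlated at 0.237 across genes. With the replicate block 455 genes were higher and 675 lower at an unadjusted p under 0.05, and 0 at an adjusted one.

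Of 2609 alternative values for 203 named genes, 18 in 13 genes changed direction, none at an adjusted p under 0.05. Another 28 reached an adjusted p under 0.05, 26 of them without a filter, among them Tgfb1, Csrp1, Mbp, Muc6, Apoe, Flt1 and Fos; there edgeR's prior degrees of freedom were infinite, compared with 8.44. The other 2 were Ggt6 without SKF+Aβ replicate 2 (adjusted p = 0.0441) and LOC103692716 with only the 4 libraries (adjusted p = 0.000287). Il6 was -0.11 with limma and -0.016 with the replicate block, and Eif2s3y -0.037 with library totals. With each library left out, log2 fold changes ranged from -0.90 to 0.65 for Il6, from -0.025 to 0.10 for Eif2s3y, from -0.032 to 0.62 for Grin2c, from -0.023 to 0.56 for Spock1, from -2.93 to 0.074 for Lct, from -0.017 to 0.70 for Sst, from -1.97 to 0.70 for Tekt1, from -0.042 to 0.26 for Hba1, from -2.17 to 2.19 for Gpr6, from -0.089 to 0.63 for Rgs16, from -0.92 to 0.060 for Mki67, from -1.35 to 0.45 for Cxcl1 and from -0.24 to 0.052 for Ep300.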

Other observations

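Other gene groups of CA1 and its surroundings gave few members at an unadjusted p under 0.05 in edgeR's quasi-likelihood test, and each gene named had an adjusted p of at least 0.746. Of 10 ependymal markers 1 was lower and 1 higher. Dnah9, a dynein heavy chain of motile cilia, was at 203 and 162 CPM in SKF+Aβ and at 103 and 130 in the treated libraries (log2 fold change -0.65 ± 0.19), and Tmem212, a membrane protein gene, had a log2 fold change of 1.58. Of 7 choroid plexus markers 0 were at this threshold in either direction. For ependymal and choroid plexus markers together 5 were higher without treated replicate 2 and 4 lower without SKF+Aβ replicate 2. Of 15 neurotrophin and growth factor genes Ntrk3, the receptor of neurotrophin-3, was lower (-0.33), and of 18 clock genes Arntl, which encodes BMAL1, was lower (-0.37). Without SKF+Aβ replicate 1 these were -0.17 and -0.16, and 0 genes of either list were lower. Ccnd1, the cyclin of the G1 phase, was higher among 17 cell cycle genes (0.49), with 0 lower and a median of -0.15. Of the cell cycle genes 0 were higher and 4 lower without SKF+Aβ replicate 2, with a median of -0.35, and the median was 0.12 without SKF+Aβ replicate 1. Of 9 blood cell markers 0 were at this threshold, and of 17 thalamic and striatal markers 1, Ppp1r1b.

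Large gene families are given by their counts at the same threshold. Of 729 genes named only by a contig of the rat assembly (AABR) 55 were lower and 2 higher, where 4.06% and 2.52% of all genes were, and the lower count was 22 without SKF+Aβ replicate 1. Of 262 zinc finger genes 7 were lower and 1 higher, of 279 solute carriers 16 and 5, of 647 genes with provisional LOC or RGD names 31 and 16, and of 24 rat MHC genes 2 and 0. Without SKF+Aβ replicate 1 the lower counts were 1 for zinc finger genes, 2 for solute carriers, 8 for the LOC and RGD names and 0 for the MHC genes. These counts were 19, 30, 53 and 3 without SKF+Aβ replicate 2.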
